A study of Mus musculus with 5 samples.

Results

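The TNF and NF-κB genes described here are 10 genes matched by symbol, of 55573 genes counted in each library. They are Tnf itself, the receptors Tnfrsf1a and Tnfrsf1b, the NF-κB subunits Rela, Rel, Relb, Nfkb1 and Nfkb2, and the inhibitors Nfkbia and Tnfaip3. All 10 symbols matched an Ensembl identifier of the count files, and all 10 had enough counts in the vehicle libraries alone to be tested. The libraries are bulk RNA from the right hemisphere of female C57BL/6 mice that carried a GL261 tumor, a mouse glioma line transduced with a luciferase/mKate2 vector and injected into the right caudate nucleus-putamen at 7 to 8 weeks of age. The 3 vehicle mice received dilution buffer, and the 2 UMBO mice received ultrasound-mediated blood-brain barrier opening, in which pulsed ultrasound is applied after intravenous microbubbles. Sessions were on days 21 and 24, and tissue was taken 24 h after the last session. The study's methods describe a further mouse, which was not analysed here. The labels name no antibody for either group, and mice were included only where tumor bioluminescence had reached a set level. A hemisphere mixes tumor, brain and immune RNA, so more or fewer cells of a type cannot be told apart from more or less RNA per cell.

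TNF is a trimeric cytokine that is released mainly by activated macrophages, microglia and lymphocytes. It binds TNFR1, the product of Tnfrsf1a, which most cells carry, and TNFR2, the product of Tnfrsf1b, which is found mostly on immune and endothelial cells. Bound receptors activate the IKK kinases, which mark IκBα, the product of Nfkbia, for destruction, so that dimers of RelA and the processed product of Nfkb1 enter the nucleus. A slower arm of the pathway processes the product of Nfkb2, the partner of RelB. Nfkbia and Tnfaip3, which encodes a ubiquitin-editing enzyme that shuts off receptor signaling, are themselves NF-κB target genes and close a feedback loop.

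NF-κB binds DNA at κB sites, and several genes of the pathway carry such letters before their own start. RefSeq promoter windows of GRCm38.p6 (250 bases before to 50 bases after a start) were found for 8 of the 10 genes, and not for Nfkb1 and Relb. The κB letters searched, on both strands, were 3 G, any 2 bases, 3 T and 2 C. They were in 6 of the 11 windows of these genes, which belong to 4 of the 8 genes, and in 1.63% of all 32851 windows. The upstream 250 bases of these 4 genes are shown because they hold the match, which is in capitals, and the promoter of Tnf is shown beside them because it lacked it, with the letters TATAAA in capitals instead.
Nfkbia, chr12:55492648-55492897, reverse strand: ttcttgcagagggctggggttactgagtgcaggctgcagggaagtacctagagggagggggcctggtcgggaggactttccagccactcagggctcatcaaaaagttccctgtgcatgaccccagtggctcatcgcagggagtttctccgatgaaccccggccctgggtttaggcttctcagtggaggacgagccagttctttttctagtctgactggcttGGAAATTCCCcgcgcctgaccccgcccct
Nfkb2, chr19:46304487-46304736, forward strand: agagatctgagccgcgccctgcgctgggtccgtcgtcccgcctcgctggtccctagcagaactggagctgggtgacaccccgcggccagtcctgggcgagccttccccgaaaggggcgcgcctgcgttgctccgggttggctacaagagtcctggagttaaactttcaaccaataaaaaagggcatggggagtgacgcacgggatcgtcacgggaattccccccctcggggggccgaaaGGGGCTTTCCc
Tnfaip3, chr10:19015411-19015660, reverse strand: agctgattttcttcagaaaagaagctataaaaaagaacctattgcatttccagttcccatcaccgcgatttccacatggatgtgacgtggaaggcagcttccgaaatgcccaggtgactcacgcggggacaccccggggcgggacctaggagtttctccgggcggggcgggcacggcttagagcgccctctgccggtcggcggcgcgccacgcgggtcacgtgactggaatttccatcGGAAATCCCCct
Rel, chr11:23770970-23771219, reverse strand: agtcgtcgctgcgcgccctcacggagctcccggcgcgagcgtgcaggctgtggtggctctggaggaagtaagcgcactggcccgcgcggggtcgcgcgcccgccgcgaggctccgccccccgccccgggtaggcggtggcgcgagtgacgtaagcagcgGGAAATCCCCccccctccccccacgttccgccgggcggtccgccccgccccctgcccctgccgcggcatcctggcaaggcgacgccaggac
Tnf, chr17:35202008-35202257, reverse strand: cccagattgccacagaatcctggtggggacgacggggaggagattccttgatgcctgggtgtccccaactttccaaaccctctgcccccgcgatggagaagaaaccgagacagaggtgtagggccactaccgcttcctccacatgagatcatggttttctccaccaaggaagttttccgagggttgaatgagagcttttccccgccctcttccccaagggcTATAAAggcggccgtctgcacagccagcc

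Counted from the first transcribed base, the match ran from -29 to -20 in Nfkbia, from -11 to -2 in Nfkb2, from -12 to -3 in Tnfaip3 and from -91 to -82 in Rel, on the strand opposite to the gene in all of these but Nfkb2. Nfkb2 has 2 further windows, which overlap each other and share 1 match, GGGACTTTCC. Tnfaip3 has a further window too, which held no such match. The windows of Tnf, Tnfrsf1a, Tnfrsf1b and Rela held no such match. Wider letters (3 G, any 5 bases and 2 C), which include the narrower ones, were in the windows of all 8 genes but also in 50.79% of all windows. TATAAA was in 13.62% of all windows and in the windows of 3 of the 8 genes, from -29 to -24 in Tnf, from -225 to -220 in Tnfaip3 and, on the opposite strand, from 20 to 25 in Nfkbia. A match is a match of letters only, and no binding was measured here.

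The total count per library was between 59736771 and 86164159. UMBO replicate 2 stood apart from the rest: on the first principal component, which held 78.7% of the variance of the log2 CPM (counts scaled to the library total after TMM normalization), it lay at 134 and the other libraries between -68.4 and 17. Of the 10 TNF and NF-κB genes, all 10 had their highest level in UMBO replicate 2, where 40.4% of all 23592 tested genes also had theirs, and 7 had their lowest in vehicle replicate 1, as did 24% of all genes. Brain markers were present in every library, with 8 of 8 neuronal, 6 of 6 astrocyte and 6 of 6 oligodendrocyte genes counted in each. Sums of marker genes also differed between the libraries, and not all in the same order. The summed CPM of 8 monocyte and macrophage genes was 51.3 to 121 with vehicle, and 126 and 447 with UMBO, with all 8 counted in every library. The sum of 8 microglial genes was 324 to 455 with vehicle, and 610 and 732 with UMBO, with 6 of the 8 higher and 2 lower in the fit. The sum of 8 proliferation genes was 27.5 to 90 with vehicle, and 96.4 and 405 with UMBO. For 8 T and NK cell genes it was 15.3 to 27.2 with vehicle, and 9.2 and 36.4 with UMBO, and for 8 neuronal genes 5170 to 7910 with vehicle, and 5440 and 2730 with UMBO. The 6 neutrophil genes summed to 0.588 to 1.9 CPM with vehicle, and 1.01 and 5.55 with UMBO, and of these Ly6g was at 0 in at least 1 library. The 6 endothelial genes summed to 146 to 200 CPM with vehicle, and 224 and 241 with UMBO. For 6 astrocyte genes the sum was 3220 to 4490 with vehicle, and 5080 and 3070 with UMBO replicates 1 and 2. For 6 oligodendrocyte genes it was 5740 to 5890 with vehicle, and 6120 and 5270 with UMBO replicates 1 and 2. Genes within a list did not all go the same way. In the fit, 3 astrocyte genes were higher and 3 lower with UMBO. For oligodendrocyte genes this was 1 and 5, for neuronal genes 1 and 7, for endothelial genes 5 and 1, and for T and NK cell genes 7 and 1. All 8 monocyte and macrophage, all 8 proliferation and the 4 tested neutrophil genes were higher. The part of these cells in the results below was not tested.

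**Figure D1:**
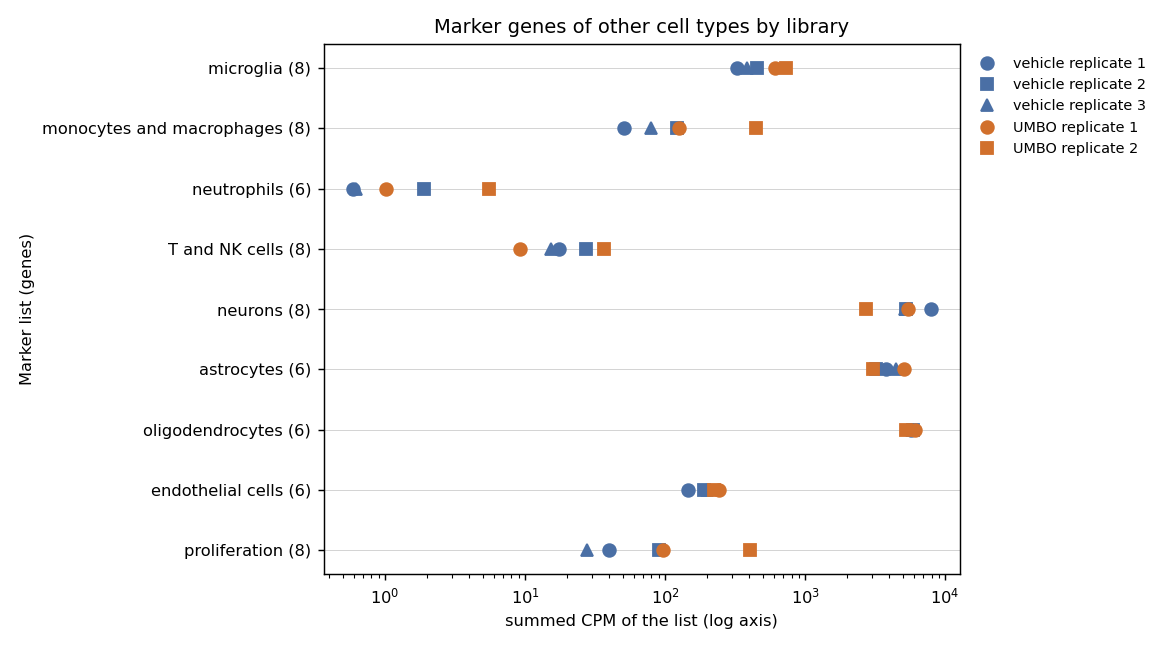
Summed CPM (log axis) of the marker genes of 9 cell types or states in each of the 5 libraries, 1 point per library (vehicle blue, UMBO orange). The monocyte and macrophage sum of UMBO replicate 1, 126, lies beside that of vehicle replicate 2, 121, and that of UMBO replicate 2 at 447.

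Tnf (ENSMUSG00000024401, chromosome 17 of GRCm38, 35199381 to 35202007, reverse strand) was the least abundant of the 10 genes per length in the vehicle libraries. It was counted 10, 65 and 41 times in vehicle replicates 1 to 3, 63 times in UMBO replicate 1 and 203 times in UMBO replicate 2. This was 0.134, 0.964 and 0.484 CPM with vehicle, and 0.737 and 3.10 CPM with UMBO. UMBO replicate 1 lay inside the vehicle range, and only UMBO replicate 2 lay above it. Counting error alone (exact Poisson 95% interval) put vehicle replicate 1 between 0.0641 and 0.246 CPM, vehicle replicate 2 between 0.744 and 1.23 CPM and UMBO replicate 2 between 2.69 and 3.55 CPM. The vehicle libraries spanned a 7.21-fold range. The mean was 0.527 ± 0.417 CPM (SD, n = 3) with vehicle and 1.92 ± 1.67 CPM (SD, n = 2) with UMBO. In edgeR's quasi-likelihood test the log2 fold change was 1.86 (95% interval -0.33 to 4.05, adjusted p = 0.497). Without UMBO replicate 2 it was 0.49, and without vehicle replicate 2 it was 2.65. The genes for lymphotoxin, Lta and Ltb, flank Tnf on chromosome 17 and were looked at after their values were known. Lta was at 0.628, 1.20 and 0.767 CPM with vehicle, and at 0.526 and 1.40 CPM with UMBO. Ltb was at 0.561, 1.39 and 0.732 CPM with vehicle, and at 0.561 and 3.05 CPM with UMBO. For both neighbors UMBO replicate 1 lay at or below the lowest vehicle library. Their log2 fold changes were 0.15 and 1.01 (adjusted p = 0.887 and 0.522 in edgeR), and both had the opposite sign without UMBO replicate 2.

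The 2 TNF receptors gave, with Nfkbia, the smallest p-values of the 10 genes. Tnfrsf1a (chromosome 6, 125349362 to 125362484, forward strand) was at 11.8, 27.6 and 15.8 CPM in the vehicle libraries, and at 27.9 and 74.1 CPM in the UMBO libraries. Both UMBO libraries were above every vehicle library, but UMBO replicate 1 exceeded vehicle replicate 2 by little. The means were 18.4 ± 8.18 CPM (SD, n = 3) and 51.0 ± 32.6 CPM (SD, n = 2), and the log2 fold change was 1.47 (95% interval 0.23 to 2.71, unadjusted p = 0.0274 and adjusted p = 0.497 in edgeR). Tnfrsf1b (chromosome 4, 145213463 to 145246870, reverse strand), the receptor of immune and endothelial cells, was at 5.12, 12.9 and 7.95 CPM with vehicle, and at 12.3 and 35.2 CPM with UMBO. Here UMBO replicate 1 lay just inside the vehicle range, so the groups overlapped. The means were 8.66 ± 3.95 CPM (SD, n = 3) and 23.8 ± 16.2 CPM (SD, n = 2), and the log2 fold change was 1.46 (95% interval 0.12 to 2.79, unadjusted p = 0.0368 and adjusted p = 0.497 in edgeR). With UMBO replicate 2 left out, Tnfrsf1a differed by a log2 fold change of 0.60 and Tnfrsf1b by 0.51. The receptors kept nearly the same proportion in every library. The level of Tnfrsf1a per kilobase of exon was 3.41, 3.15 and 2.93 times that of Tnfrsf1b with vehicle, and 3.33 and 3.10 times with UMBO.

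Among the NF-κB subunits, the members of the slower arm varied more between libraries than those of the canonical arm. Rela (chromosome 19, 5637483 to 5648130), which encodes the main transactivating subunit, was at 21.2, 28.7 and 23.4 CPM with vehicle, and at 26.7 and 43.1 CPM with UMBO. Nfkb1 (chromosome 3, 135584655 to 135691547), whose product is processed to the usual partner of RelA, was at 22.8, 28.0 and 27.9 CPM with vehicle, and at 29.3 and 41.1 CPM with UMBO. The log2 fold changes were 0.51 for Rela (95% interval -0.12 to 1.15) and 0.42 for Nfkb1 (95% interval -0.10 to 0.95), both with an adjusted p of 0.497 in edgeR. In Nfkb1 both UMBO libraries were above every vehicle library, and in Rela the groups overlapped. Rel (chromosome 11, 23736847 to 23770970), the lymphoid and myeloid subunit c-Rel, was the steadiest of the 10 genes, at 6.78, 5.72 and 6.75 CPM with vehicle, and at 7.13 and 7.16 CPM with UMBO. Its UMBO libraries did not overlap the vehicle libraries, but its log2 fold change was 0.15 (95% interval -0.39 to 0.70, adjusted p = 0.713 in edgeR).

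Nfkb2 (chromosome 19, 46304320 to 46312385, forward strand) was at 4.13, 10.8 and 6.33 CPM with vehicle, and at 8.02 and 25.9 CPM with UMBO. Its partner Relb (chromosome 7, 19606217 to 19629438, reverse strand) was at 5.39, 8.50 and 5.34 CPM with vehicle, and at 7.53 and 16.2 CPM with UMBO. In both genes UMBO replicate 1 lay below vehicle replicate 2, and only UMBO replicate 2 was above the vehicle range. The log2 fold change was 1.26 for Nfkb2 (95% interval -0.19 to 2.7) and 0.89 for Relb (95% interval -0.09 to 1.87), each with an adjusted p of 0.497 in edgeR. Without UMBO replicate 2 these were 0.18 and 0.23. The counts of Nfkb2 carry a further uncertainty, since 299 of its exonic bases (6.52%) are shared with Psd on the opposite strand, which had 11835 to 26737 counts per library against 309 to 1697 for Nfkb2, and 531 bases (11.58%) with the antisense RNA AC114539.1. The sources used here do not give the strand setting of the counting. In UMBO replicate 2, where Nfkb2 had its highest count, Psd had its lowest, and AC114539.1 had its highest, at 208 against 103 to 142 in the other libraries.

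**Figure D2:**
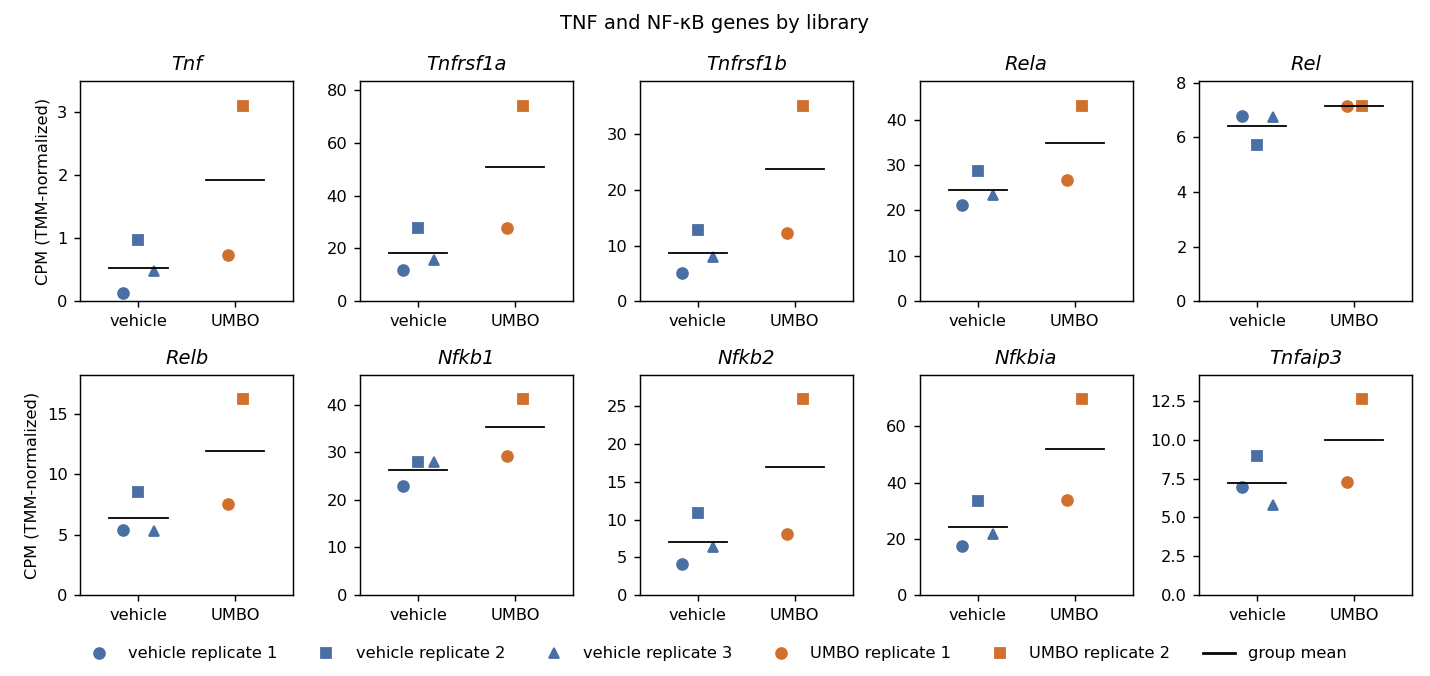
TMM-normalized CPM of the 10 TNF and NF-κB genes (each panel with its own linear axis from 0) in the 3 vehicle (blue) and 2 UMBO (orange) libraries, 1 point per library, with a line at the group mean. UMBO replicate 2 (orange square) is the highest point in all 10 panels, and UMBO replicate 1 (orange circle) lies inside the vehicle range in 6 of them.

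Both feedback inhibitors were expressed in every library. Nfkbia (chromosome 12, 55489410 to 55492647, reverse strand) had the highest level per length of the 10 genes and was at 17.4, 33.6 and 21.6 CPM with vehicle, and at 33.9 and 69.6 CPM with UMBO. UMBO replicate 1 exceeded vehicle replicate 2 by little, and with library size as the only scaling the groups overlapped. The means were 24.2 ± 8.38 CPM (SD, n = 3) and 51.8 ± 25.2 CPM (SD, n = 2). The log2 fold change was 1.10 (95% interval 0.13 to 2.07, unadjusted p = 0.0323 and adjusted p = 0.497 in edgeR), and without UMBO replicate 2 it was 0.49. Tnfaip3 (chromosome 10, 19000910 to 19015657, reverse strand) was at 6.96, 8.97 and 5.80 CPM with vehicle, and at 7.31 and 12.6 CPM with UMBO. UMBO replicate 1 lay at the vehicle mean of 7.24 CPM, so that the log2 fold change of 0.46 (95% interval -0.35 to 1.27, adjusted p = 0.513 in edgeR) became 0.01 without UMBO replicate 2.

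Per kilobase of exon, levels can be compared between genes only roughly. The length used is that of all annotated exons of a gene, 12061 bases for Nfkb1 and 3072 for Rela, not that of the transcripts present. The order below therefore depends on the annotation. By this measure the order of the vehicle means was Nfkbia (15.0 CPM per kb), Rela (7.96), Tnfrsf1a (7.10), Tnfrsf1b (2.27), Nfkb1 (2.17), Relb (1.65), Nfkb2 (1.55), Tnfaip3 (1.00), Rel (0.86) and Tnf (0.322). Several neighbors in this order overlapped between libraries. Tnfrsf1a ranged from 4.57 to 10.6 CPM per kb with vehicle and Rela from 6.90 to 9.34, and the ranges of Tnfrsf1b, Nfkb1, Relb and Nfkb2 overlapped as well. With UMBO the means were 32.2 CPM per kb for Nfkbia, 19.7 for Tnfrsf1a, 11.4 for Rela and 6.23 for Tnfrsf1b. Nfkb2 (3.70), Relb (3.06) and Nfkb1 (2.92) followed, and Tnfaip3 (1.38), Tnf (1.17) and Rel (0.957) were lowest. Ratios within a library, which do not depend on its depth, showed where the proportions moved. Nfkb2 was at 0.477, 1.02 and 0.597 times the level of Nfkb1 per length with vehicle, and at 0.721 and 1.66 times with UMBO. Relb was at 0.201, 0.234 and 0.18 times the level of Rela with vehicle, and at 0.223 and 0.298 times with UMBO. Nfkbia was at 1.57, 2.23 and 1.76 times the level of Rela with vehicle, and at 2.42 and 3.08 times with UMBO. Rel was at 0.132, 0.0821 and 0.119 times the level of Rela with vehicle, and at 0.11 and 0.0684 times with UMBO. Among these ratios and that of the receptors, only Nfkbia to Rela was higher in each UMBO library than in any vehicle library. In UMBO replicate 1 the margin was small. These ratios were chosen after the values were known and were not tested.

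**Figure D3:**
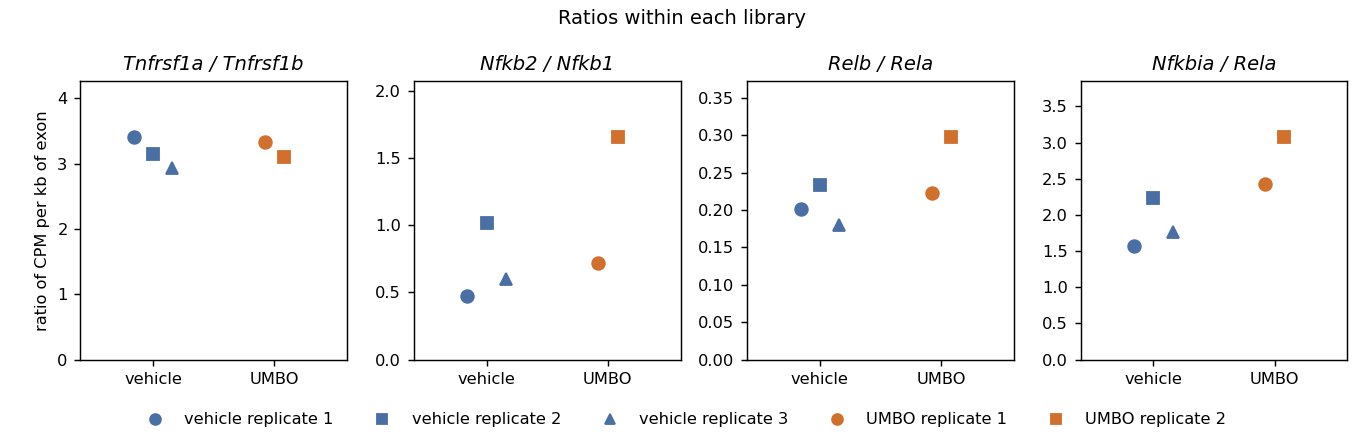
Ratios of CPM per kb of exon within each library (linear axes from 0) for 4 pairs of genes, 1 point per library. The ratio of the receptors lies between 2.93 and 3.41 in all 5 libraries, and the ratio of Nfkb2 to Nfkb1 runs from 0.477 in vehicle replicate 1 to 1.66 in UMBO replicate 2.

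Set side by side, all 10 genes had a higher fitted level with UMBO, as did 12007 of all 23592 tested genes. Of the 10, 0 passed the adjusted threshold of 0.05 in edgeR's quasi-likelihood test. Nor did any other gene, since 0 of 23592 tested genes passed (0%), while 1251 higher genes (5.3%) and 487 lower genes (2.06%) had an unadjusted p under 0.05. Of the 10 genes, 3 had an unadjusted p under 0.05, namely Tnfrsf1a, Nfkbia and Tnfrsf1b, all higher with UMBO. With the DESeq2 Wald test 0 of the 10 passed an adjusted p of 0.05, where 40 of 22403 genes did (0.179%), and 5 of the 10 had an unadjusted p under 0.05, against 4.87% of all genes, counting those higher. With the replicate number as a block, which the labels do not establish as a pairing, 5 of the 10 passed an adjusted p of 0.05 in edgeR (Tnf, Tnfrsf1a, Tnfrsf1b, Nfkb2 and Nfkbia), where 9.91% of all genes did. In 4 of the 10 genes (Tnfrsf1a, Rel, Nfkb1 and Nfkbia) both UMBO libraries were above every vehicle library, against 11.5% of all tested genes, and in 0 of the 10 were both below, against 11.4%. Their log2 fold changes had a median of 0.99, and those of all tested genes one of 0.01. UMBO replicate 2 decided most of this median, which was 0.21 without it and 1.41 without UMBO replicate 1. On the log2 scale, with the vehicle mean at 0, the 10 genes had a median level of -0.31, 0.48 and -0.05 in vehicle replicates 1 to 3, and of 0.28 and 1.48 in the UMBO replicates, so UMBO replicate 1 lay below vehicle replicate 2. When vehicle replicate 1 or 3 was left out, 0 of the 10 genes had an unadjusted p under 0.05 in edgeR. Of all genes tested then, 0.838% and 0.945% were higher at that p. Leaving out vehicle replicate 2 gave 6 of the 10, where 9.36% of all genes were higher at that p. The genes with the κB letters shown above had log2 fold changes of 1.26 (Nfkb2), 1.10 (Nfkbia), 0.46 (Tnfaip3) and 0.15 (Rel). Those with a promoter window but without the letters had 1.86 (Tnf), 1.47 (Tnfrsf1a), 1.46 (Tnfrsf1b) and 0.51 (Rela). This is a description of 8 genes and was not tested.

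**Figure D4:**
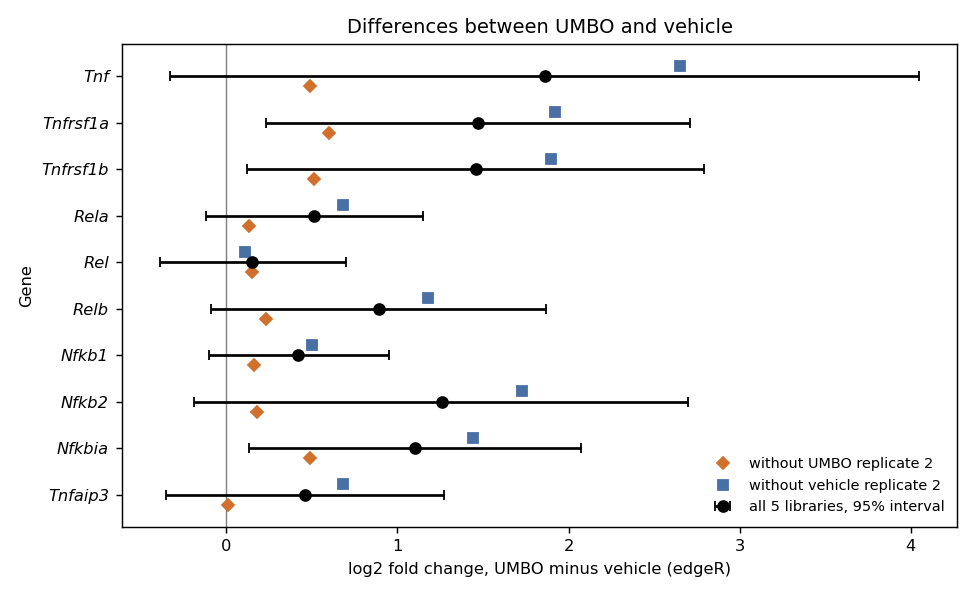
The log2 fold change (UMBO minus vehicle, edgeR) of each of the 10 genes with its 95% interval from all 5 libraries (black), and the value without UMBO replicate 2 (orange) and without vehicle replicate 2 (blue). The intervals of Tnfrsf1a, Tnfrsf1b and Nfkbia lie above 0, and the values without UMBO replicate 2 lie between 0.01 and 0.60.

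The rest of the pathway was read from 7 lists. No gene of these lists passed an adjusted p of 0.05 in edgeR or in DESeq2, and 0 of 23592 genes did in edgeR. The counts that follow are of genes with an unadjusted p under 0.05 in edgeR, all of them higher with UMBO. Of all tested genes, 5.3% were higher at that p. At any p, 12007 of all tested genes were higher and 11585 lower with UMBO. At the receptor, 2 of 17 tested genes of the TNF receptor signaling complex had such a p-value, Casp8 and Ripk3, and the median log2 fold change of the list was 0.47. Casp8, the initiator protease of receptor-induced apoptosis, was at 3.76, 6.61 and 4.84 CPM with vehicle, and at 8.33 and 15.6 CPM with UMBO, a log2 fold change of 1.24. Ripk3, the kinase of necroptosis, was at 0.361, 1.05 and 0.579 CPM with vehicle, and at 0.924 and 3.37 CPM with UMBO. The groups overlapped in Ripk3 and not in Casp8. Both UMBO libraries were above every vehicle library in 5 of the 17 genes, against 11.5% of all genes. Without UMBO replicate 2 the median of the list was 0.13.

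The kinases between receptor and IκB stood out least. Of 11 genes for IKK kinases and their activators 0 had an unadjusted p under 0.05, 6 were higher and 5 lower with UMBO, and the median log2 fold change was 0.07. The smallest p-values were those of Ikbke, an IKK-related kinase better known from the interferon response, and Tab3, an adaptor of the kinase TAK1. Ikbke was at 2.30, 4.46 and 3.71 CPM with vehicle, and at 4.40 and 10.6 CPM with UMBO, and Tab3 was at 31.1, 20.7 and 28.7 CPM with vehicle, and at 21.9 and 13.9 CPM with UMBO. In both the groups overlapped. Of 14 genes for other IκB proteins and inhibitors 0 had an unadjusted p under 0.05, 11 had a higher and 3 a lower fitted level with UMBO, and their median log2 fold change was 0.54, or 0.02 without UMBO replicate 2. Bcl3, a nuclear IκB protein that pairs with the processed products of Nfkb1 and Nfkb2, was at 1.03, 4.34 and 1.58 CPM with vehicle, and at 3.03 and 15.7 CPM with UMBO. Its log2 fold change was 2.02, with a 95% interval of -0.06 to 4.10, and 0.39 without UMBO replicate 2. Nfkbiz, another nuclear IκB protein, was at 6.00, 7.09 and 6.23 CPM with vehicle, and at 7.58 and 13.3 CPM with UMBO, with no overlap of the groups.

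Among the other TNF superfamily ligands 13 of 17 genes were tested. The median of their log2 fold changes was 0.75 (0.01 without UMBO replicate 2). Of the 13, 1 had such a p-value, against 5.3% of all genes. That gene, Tnfsf18 (the ligand GITRL), had 0, 2 and 3 counts with vehicle, and 11 and 12 counts with UMBO, so it passed the filter on low counts only through the UMBO libraries and had to differ. Tnfsf11 and Tnfsf14 too reached 10 counts in fewer than 2 vehicle libraries, so the median of this list includes 3 genes that passed through UMBO. Tnfsf9, the ligand of the costimulatory receptor 4-1BB, was at 0.321, 0.86 and 0.496 CPM with vehicle, and at 0.608 and 2.35 CPM with UMBO. Of 23 other TNF receptor superfamily genes 3 had an unadjusted p under 0.05 in edgeR, against 5.3% of all genes higher at that p. Of the 23, 18 were higher and 5 lower. The median log2 fold change was 0.61, or 0.02 without UMBO replicate 2 and 0.37 with the replicate number as a block. Eda2r, a receptor of the ligand ectodysplasin, was at 0.401, 0.46 and 0.496 CPM with vehicle, and at 0.90 and 1.24 CPM with UMBO. Its log2 fold change of 1.23 (95% interval 0.40 to 2.07, unadjusted p = 0.011 and adjusted p = 0.497 in edgeR) was 0.99 without UMBO replicate 2. Tnfrsf10b, the mouse TRAIL death receptor, was at 0.936, 1.20 and 0.968 CPM with vehicle, and at 1.59 and 2.90 CPM with UMBO. In both receptors the groups were apart, with UMBO higher. The remaining gene of the 3, named after its values were seen, was Ltbr, the lymphotoxin beta receptor and an activator of the slower NF-κB arm. It was at 8.69, 16.5 and 9.35 CPM with vehicle, and at 15.1 and 47.5 CPM with UMBO, and its groups overlapped.

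Of 8 genes for TNF shedding and for decay of AU-rich mRNA, 2 had an unadjusted p under 0.05 in edgeR, against 5.3% of all genes higher at that p. The median log2 fold change of the list was 0.44. Adam17, the protease that sheds TNF and its receptors from the cell surface, was at 20.5, 26.1 and 26.3 CPM with vehicle, and at 31.2 and 37.1 CPM with UMBO. Rhbdf1, which encodes the inactive rhomboid iRhom1 that escorts this protease to the surface, was at 11.3, 15.7 and 13.6 CPM with vehicle, and at 17.6 and 27.2 CPM with UMBO. In both genes every UMBO library was above every vehicle library. Without UMBO replicate 2 their log2 fold changes were 0.36 and 0.38, against 0.49 and 0.73 with it. This list depended least on that library of the lists with a median above 0.1, with a median of 0.29 without UMBO replicate 2.

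Of 29 NF-κB target genes that were in no other list, 25 were tested, 24 were higher and 1 lower with UMBO, and the median log2 fold change was 0.99. Of these 5 had an unadjusted p under 0.05, against 5.3% of all genes, and in 4 of the 25 both UMBO libraries were above every vehicle library, near the 11.5% of all genes. Cxcl1, a neutrophil-attracting chemokine, was counted 4, 16 and 11 times with vehicle, and 30 and 196 times with UMBO, or 0.0535, 0.237 and 0.13 CPM against 0.351 and 2.99 CPM. Its log2 fold change was 3.57 (95% interval 1.13 to 6.00, unadjusted p = 0.0116 and adjusted p = 0.497 in edgeR), and 1.33 without UMBO replicate 2. Plau, the urokinase-type plasminogen activator, was at 3.38, 6.20 and 3.06 CPM with vehicle, and at 6.58 and 22.8 CPM with UMBO. Both UMBO libraries exceeded the vehicle libraries in these genes, for Plau by little in UMBO replicate 1. Il6, Csf1 and Gadd45b were the others of these 5 and are named after their values were seen. The cytokine Il6 was counted 2, 16 and 11 times with vehicle, and 19 and 147 times with UMBO, and its groups overlapped on the CPM scale. Csf1, the growth factor of microglia and macrophages, was at 27.0, 37.9 and 31.8 CPM with vehicle, and at 43.3 and 60.1 CPM with UMBO. The stress gene Gadd45b was at 9.95, 11.9 and 6.98 CPM with vehicle, and at 12.9 and 26.4 CPM with UMBO. With the vehicle mean at 0, the target list had a median log2 level of -0.62, 0.68 and -0.07 with vehicle, and of 0.44 and 1.71 with UMBO, the same order of libraries as for the 10 TNF and NF-κB genes. Without UMBO replicate 2 the median log2 fold change of the target list was 0.08.

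**Figure D5:**
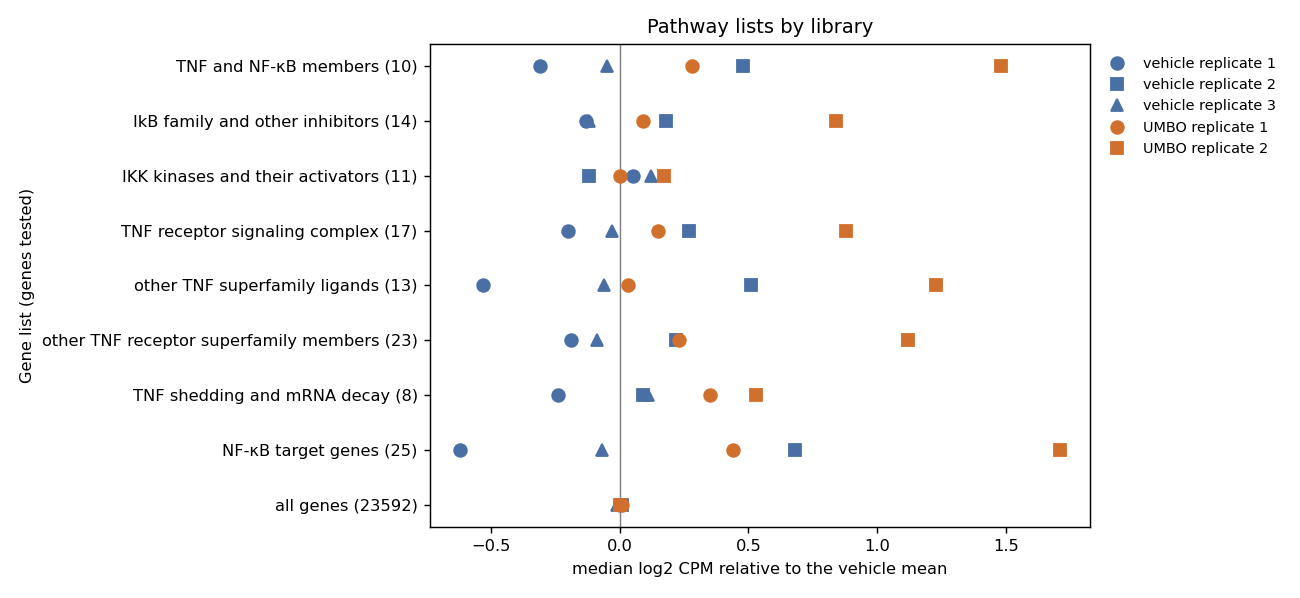
Median log2 CPM relative to the vehicle mean of the 10 TNF and NF-κB genes, of 7 pathway lists and of all genes tested (number of genes tested in brackets), 1 point per library. UMBO replicate 2 is the highest point in each of the 8 lists, and the kinase list, between -0.12 and 0.17, is the narrowest of them.

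Over the 5 libraries, the tested genes whose centred log2 CPM profile lay nearest to that of Tnf were BC147527, Gm46224 and Gzmb, at root mean square distances of 0.103, 0.155 and 0.22 on the log2 scale. Genes near to Nfkbia by the same measure were Eva1b (0.0187) and Smim3 (0.0292). With 5 libraries and one of them far from the rest, many genes share such a profile, and these distances describe these libraries only.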

How the data were processed

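Libraries from the right hemispheres of 5 mice (3 vehicle, 2 UMBO) were analysed here, 1 per mouse. The authors mapped the reads to GRCm38 with STAR 2.7.2a and deposited read counts for each gene, without normalization. The annotation release and strand setting are not given in the sources used here. Symbols, positions and exonic lengths were taken from GENCODE M21, which matched 55480 of 55573 identifiers. Counts were normalized by TMM and genes with low counts removed with filterByExpr (minimum count 10). The 23592 remaining genes were compared in R 4.3.3 with edgeR 4.0.16 (quasi-likelihood), and p-values were adjusted over all of them by the Benjamini-Hochberg method. These p-values weigh the difference between the groups against the spread of these mice within a group. Log2 CPM used a prior count of 2, and standard errors behind the 95% intervals were taken from the test statistic. DESeq2 1.42.0 was an alternative, as were other scalings and filters, the replicate number as a block and each library left out. Scripts were tested on simulated counts. Chi-square values per gene between libraries were 55.9 to 703, so no library was a copy of another. The 10 genes and the lists were chosen with earlier results of these data known. Named genes were the 10, the 2 with the smallest p in each list, and the 3 nearest in profile to Tnf and to Nfkbia. Of the latter, 1 is not reported here. Promoter sequences are RefSeq's. Counting intervals cover counting error only. The total count, 59736771 or more, makes that error small except for rare genes such as Tnf.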

Additional observations from a re-analysis of the deposited data

How the results depend on the processing

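The log2 fold changes of the 10 TNF and NF-κB genes stayed above 0 under the 12 alternatives run. The median of the 10 was 0.97 with DESeq2, 0.96 without a filter on low counts and 1.12 with library size as the only scaling, which moved the median of all genes from 0.01 to 0.125. With 1 library left out it ranged from 0.21 to 1.41. The number of the 10 genes with an unadjusted p under 0.05 was 3, against 5 with the DESeq2 Wald test, 6 without a filter on low counts and 0 to 9 with 1 library left out, and the cause was not tested. Of all genes, 5.3% were higher at that p, against 4.87% with the DESeq2 Wald test and 7.31% without that filter. The highest number came without UMBO replicate 1, where a lone UMBO library was left. A larger share of all genes had such a p there than in any other setting run. Both UMBO libraries were above every vehicle library in 4 of the 10 genes, against 11.5% of all tested genes, and in 3 with library size only. With 1 vehicle library left out the number ran from 4 to 10. The 10 came without vehicle replicate 2, and the share of all genes in that setting is not given here. UMBO replicate 2 alone was above the vehicle range in all 10, as it was in 42.2% of all tested genes. Genes with an adjusted p under 0.05 numbered 0 in edgeR, 40 with DESeq2, and 0 in edgeR with any 1 vehicle library left out. The 4543 came without UMBO replicate 1, where the lone UMBO library was assumed to vary like the vehicle libraries, and 5 of the 10 genes were among them. Higher against lower genes at an unadjusted p under 0.05 were 1251 to 487. The split was 1502 to 395 with library size only. Leaving out vehicle replicate 2 gave 2164 to 510, and leaving out vehicle replicate 3 gave 217 to 215. With 1 library left out, the median of the kinase list ranged from -0.01 to 0.13, the log2 fold change of Lta from -0.71 to 0.67 and that of Ltb from -0.67 to 1.74, each lowest without UMBO replicate 2. Without vehicle replicate 1 it was -0.03 for Lta.

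With the replicate number as a block, 8 of the 10 genes had an unadjusted p under 0.05, where 14.4% of all genes were higher and 11.6% lower at that p. Of the 10, 5 passed an adjusted p of 0.05, with 2337 of all genes (2163 with the libraries of replicates 1 and 2 only, again with 8 of the 10 genes). The log2 fold change of Lta was then 0.00. Nothing in the labels says that a number marks a shared litter or day. Deviations from the group mean correlated at 0.453 for number 1 and 0.76 for number 2, but vehicle replicate 3 correlated at 0.521 with UMBO replicate 1, and with 2 UMBO libraries 1 deviation is the negative of the other. The numbers were therefore not taken as pairs.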
